A study of Mus musculus with 15 samples.

Results

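The 6 genes followed here, Cyp17a1, Cyb5a, Hsd17b3, Lhcgr, Insl3 and Enpep, were taken by their symbols from the 27907 genes measured by RNA sequencing in mouse ovaries. They were chosen as genes of androgen synthesis in theca cells and genes best known from Leydig cells, the androgen-making cells of the testis. HSD17B1-KI females (n = 7) carried the Ser143Ala substitution in both copies of the Hsd17b1 gene. The substitution, made with CRISPR/Cas9, changes the active site of 17β-hydroxysteroid dehydrogenase 1, the enzyme that turns estrone into estradiol. WT females (n = 8) came from the same breeding of heterozygous parents, and all 15 mice were 6 months old, in the estrus stage by their labels and untreated as far as the labels state. The mutation was present in every cell from conception, and whole ovaries were sequenced, so a difference can come from any ovarian cell type. The comparison of the genotypes addresses how ovarian gene expression differs when this enzyme is inactive.

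Theca cells surround the growing follicle and, under luteinizing hormone (LH), make the androgens that the granulosa cells inside it turn into estrogens. LH acts through the receptor encoded by Lhcgr and raises cyclic AMP in the cell. The enzyme encoded by Cyp17a1 then converts progestogens to androgens, with cytochrome b5 (Cyb5a) favouring the lyase reaction that yields androgens. Hsd17b3 encodes the testicular enzyme that reduces androstenedione to testosterone, Insl3 encodes a relaxin-like peptide hormone released by Leydig and theca cells, and Enpep encodes aminopeptidase A, which trims angiotensin II.

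None of the 6 genes was differentially expressed (DE) between the genotypes in limma-trend, which called 0.214% of all genes tested, although 5 of them had a positive log2 fold change. Insl3 came closest, with 67.7 ± 35.5 normalized counts in the HSD17B1-KI ovaries against 26.8 ± 5.84 in the WT ovaries (SD, n = 7 and 8). Cyp17a1 had the widest spread of the 6 genes, from 107 to 56551 normalized counts, and its 4 lowest mice included 2 of each genotype. The 4 mice lowest in Cyp17a1 were also the 4 lowest in Cyb5a, while they held 0 of the 4 lowest values of Hsd17b3 and 2 of those of Enpep.

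Reads counted on genes ranged from 26544745 to 72362981 per mouse, and a normalized count is a read count divided by the size factor of its library. Genes were called DE at an adjusted p under 0.05 in limma-trend over the 21525 genes that averaged 2 or more normalized counts, a filter that all 6 genes passed, and fold changes are on the log2(normalized count + 1) scale. This called 46 genes (45 higher and 1 lower in HSD17B1-KI), and leaving out 1 mouse at a time moved the count to between 6 (without HSD17B1-KI 2) and 139 (without HSD17B1-KI 5). DESeq2 on the recovered reads called 456. In simulated counts with 200 genes changed 3-fold, DESeq2 found 184 of these with 41 false calls, and limma found 172 with 5 false calls. Each gene was simulated independently of the others, without differences in tissue content between ovaries. The number of false calls among the real genes therefore cannot be read from it. Several marker lists differed widely between ovaries. The summed level of 8 oviduct epithelium markers ran from 3061 to 29333 normalized counts in HSD17B1-KI and from 3421 to 240975 in WT. The sum of 5 adipocyte markers ran from 2306 to 9312 and from 2478 to 10254. None of these 13 markers was DE with limma-trend or DESeq2. At an unadjusted limma p under 0.05, 1 oviduct and 4 adipocyte markers were lower and 1 adipocyte marker was higher in HSD17B1-KI. Of all genes tested, 4.64% were lower and 5.36% higher at that p. The median log2 fold change was -0.85 for the oviduct markers and -1.62 for the adipocyte markers. Their part in the results below was not tested.

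The stretches before the starts of Insl3 and Lhcgr are shown because these were the genes whose 7 HSD17B1-KI values all lay above the WT median. The RefSeq promoter table (GRCm38.p6) held 4 of the 6 genes, namely these, Enpep and Hsd17b3. Capitals mark GGGCGG, the core of the box bound by SP1, a general activator of promoters, searched on both strands. The Insl3 stretch is chr8:71689002-71689213 on the plus strand and the Lhcgr stretch is chr17:88792015-88792264 on the minus strand, each written 5′ to 3′ in the direction of its gene.
Insl3: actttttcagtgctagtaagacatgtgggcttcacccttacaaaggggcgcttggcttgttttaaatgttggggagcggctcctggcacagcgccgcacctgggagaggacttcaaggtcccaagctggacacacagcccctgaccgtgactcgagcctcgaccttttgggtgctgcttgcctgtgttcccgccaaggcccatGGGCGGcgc
Lhcgr: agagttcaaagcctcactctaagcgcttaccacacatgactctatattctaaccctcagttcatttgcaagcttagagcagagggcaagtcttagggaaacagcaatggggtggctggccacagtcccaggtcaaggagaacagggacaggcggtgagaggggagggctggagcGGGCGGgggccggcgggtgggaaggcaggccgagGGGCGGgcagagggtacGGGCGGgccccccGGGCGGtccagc

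Each search window ran from 250 bases before the RefSeq start to 50 after it. Insl3 held GGGCGG at 1 position and Lhcgr at 4, and 35.9% of the 32544 promoters in the table held it. The letters AAGGTCA, bound by the steroidogenic factor NR5A1 and present in 4.71% of all promoters, were in none of the 4 windows. TGACGT, part of the cyclic AMP response element and present in 7.55% of promoters, was in none either. GATAA, the core bound by GATA factors, was in the windows of Enpep and Hsd17b3 (25.3% of all promoters). TATAAA, the letters of the TATA box, was in the window of Enpep (13.6% of all promoters). Its matches there lay on the strand opposite to the gene, at bases -52 and -1 from the RefSeq start. No match overlapped another, and a match of letters describes the sequence only.

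Cyp17a1 (ENSMUSG00000003555) lies on chromosome 19 from 46667165 to 46673172 on the minus strand in mm10. Its lowest, median and highest levels were 224, 41683 and 56551 normalized counts in HSD17B1-KI and 107, 4644 and 21605 in WT. HSD17B1-KI 4 and 5 and WT 3 and 6 had 107 to 254, and the other 11 mice had at least 2033, so an 8.01-fold gap without any mouse separated 2 ranges. Above this gap the 5 HSD17B1-KI mice (24106 to 56551) lay higher than the 6 WT mice (2033 to 21605).

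The mean of Cyp17a1 in HSD17B1-KI was 4.19 times that in WT, and the log2 fold change was 1.88 ± 1.55 (SE, limma adjusted p = 0.734) with a 95% interval from -1.41 to 5.16. An exact two-sided permutation test over the 6435 splits of the mice gave p = 0.291 on log2 values and p = 0.0218 on normalized counts, so the call depended on the scale. The SD of log2 values within genotypes was 3.31, and 65 of the 18047 genes averaging 10 or more normalized counts had a higher one, where the median gene had 0.268.

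Other cell markers moved with the 4 low ovaries. The 5 adrenal cortex markers, led by Cyp11b1, the last enzyme of corticosterone synthesis, summed to between 1369 and 2556 normalized counts in these 4 mice and to between 42.0 and 270 in the other 11. The 6 stromal fibroblast markers summed to between 207668 and 269421 against 93734 to 150592. The 10 granulosa cell markers summed to between 126904 and 155256 against 168010 to 365810. The sum of 10 theca and interstitial cell markers was not low where Cyp17a1 was, at 879236 to 1331301 against 539523 to 1052873. Much of it came from Hsd3b1 (340190 to 439507 in these 4 mice) and Cyp11a1 (327949 to 470912), which are also luteal cell markers. Star, another of the 10, had 40363 to 103552 against 5151 to 41061. The sum thus does not set theca cells apart from luteal cells. These 4 mice were picked out by their Cyp17a1 level, so the ranges are a description, and the part of these cells in the Cyp17a1 values was not tested. In whole ovaries, fewer cells of a type and less RNA per cell cannot be told apart.

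**Figure D1:**
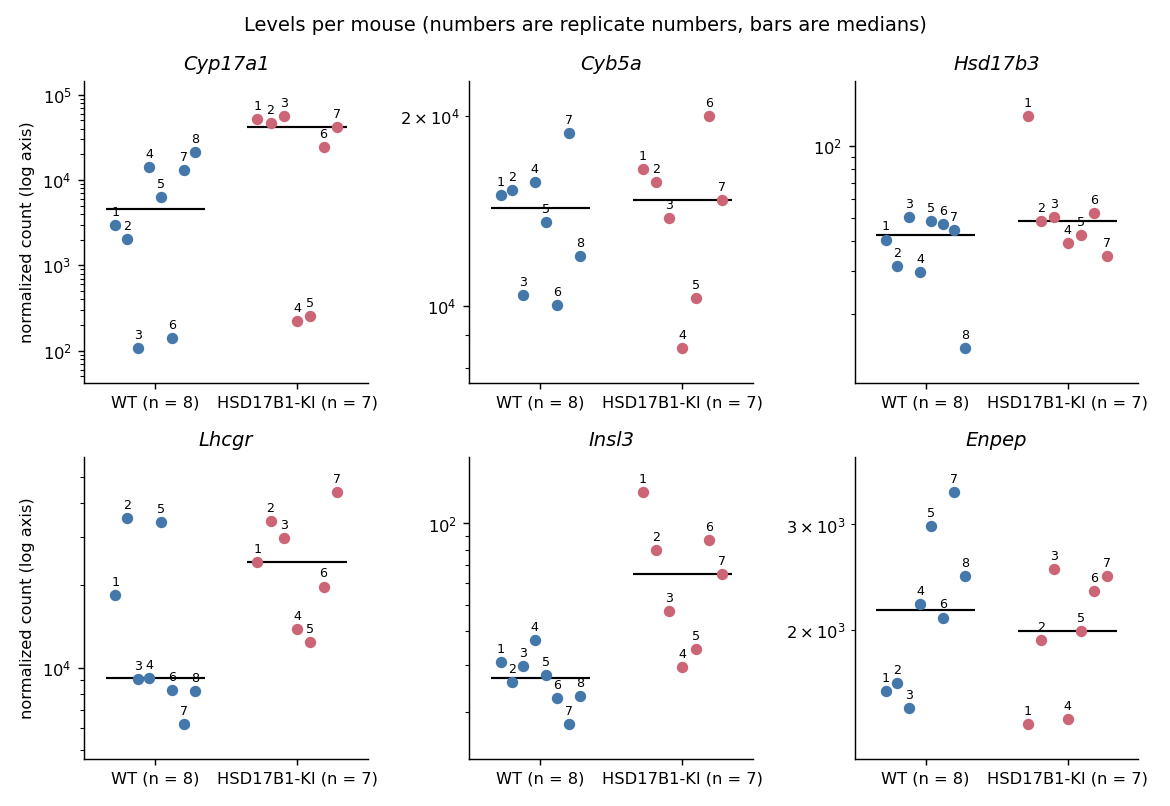
Normalized counts of the 6 genes (vertical log axes, one range per panel) in 8 WT and 7 HSD17B1-KI mice, with replicate numbers beside the points and bars at the medians. In Cyp17a1, WT 3 and 6 and HSD17B1-KI 4 and 5 sit at 107 to 254 and the other mice at 2033 or more, while in Insl3 the lowest HSD17B1-KI mouse (29.4) lies above the WT median (26.7).

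Cyb5a (ENSMUSG00000024646), on chromosome 18, encodes the small heme protein that passes electrons to cytochrome P450 enzymes in many cell types. It had a lowest, median and highest level of 8589, 14694 and 19974 normalized counts in HSD17B1-KI and 10050, 14287 and 18804 in WT. The genotypes overlapped over nearly their whole range. The log2 fold change was 0.02 ± 0.17 (SE, limma adjusted p = 0.982), and its 95% interval from -0.35 to 0.39 covers folds from 0.784 to 1.31. HSD17B1-KI 4 and 5 and WT 3 and 6 had between 8589 and 10411, and the other 11 mice between 12005 and 19974. Gm16146, an antisense gene at 3.84 normalized counts on average, overlaps the span of Cyb5a without sharing exon bases.

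Hsd17b3 (ENSMUSG00000033122; chromosome 13, 64058266 to 64089230, minus strand) was measured with 15 to 115 reads per library. Its lowest, median and highest levels were 34.7, 48.7 and 134 normalized counts in HSD17B1-KI and 14.3, 42.6 and 50.6 in WT. HSD17B1-KI 1 stood far above and WT 8 far below the other mice of its genotype, and the remaining 13 mice overlapped between 29.9 and 52.4. The log2 fold change was 0.51 ± 0.30 (SE, limma adjusted p = 0.619), and the exact permutation test gave p = 0.132. The 95% interval ran from -0.14 to 1.16, and the estimate was 0.29 without HSD17B1-KI 1.

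Lhcgr (ENSMUSG00000024107; chromosome 17, 88716481 to 88791990, minus strand), the LH receptor of theca, luteal and preovulatory granulosa cells, had a lowest, median and highest level of 12379, 24341 and 44182 normalized counts in HSD17B1-KI. In WT these were 6203, 9127 and 35356. Every HSD17B1-KI value exceeded the WT median, and 5 of the 8 WT mice were below every HSD17B1-KI mouse. WT 1, 2 and 5, with 18452, 35356 and 34286, lay within the HSD17B1-KI range. The log2 fold change was 0.85 ± 0.40 (SE, limma adjusted p = 0.504). The exact permutation test gave p = 0.0779 on log2 values and p = 0.144 on normalized counts. On log2 values p was 0.0286 without WT 2 and 0.0303 without WT 5, the highest WT mice, so either mouse decided the side of 0.05. Leaving out any other mouse gave p from 0.0509 to 0.148.

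Insl3 (ENSMUSG00000079019; chromosome 8, 71689214 to 71690575, plus strand) was a low-level transcript with 15 to 113 reads per library. Its lowest, median and highest levels were 29.4, 65.1 and 131 normalized counts in HSD17B1-KI and 18.1, 26.7 and 37.0 in WT. Every HSD17B1-KI value exceeded the WT mean, 5 of the 7 exceeded all WT values, and HSD17B1-KI 4 and 5, with 29.4 and 34.2, lay within the WT range. These were the HSD17B1-KI mice lowest in Cyp17a1. The log2 fold change was 1.17 ± 0.29 (SE, 95% interval 0.56 to 1.78).

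Insl3 gave p = 0.00124 in the exact permutation test as a single gene, and leaving out any mouse kept this p between 0.000666 and 0.00466. Over all genes tested it did not pass, with an adjusted p of 0.110 in limma-trend and 0.0700 in edgeR's quasi-likelihood test, but it passed in DESeq2 (adjusted p = 0.00234, log2 fold change 1.33). Its count carries an uncertainty that the other genes do not. The last exon of Insl3, 404 of its 623 exon bases, is also an exon of a Jak3 transcript on the same strand in GENCODE M21, so reads from it cannot be assigned by strand, and how they were counted is not given in the sources used here. Jak3, a cytokine receptor kinase of blood cells, had 797 ± 121 normalized counts in the HSD17B1-KI ovaries against 889 ± 134 in the WT ovaries (SD, n = 7 and 8). Its log2 fold change was -0.16 ± 0.11 (SE, limma adjusted p = 0.695), with p = 0.191 in the exact permutation test. The part of Jak3 reads in the Insl3 counts was not tested.

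Enpep (ENSMUSG00000028024; chromosome 3, 129269175 to 129332720, minus strand), also expressed by pericytes and kidney epithelium, was the only one of the 6 genes with a negative log2 fold change. Its lowest, median and highest levels were 1396, 1993 and 2527 normalized counts in HSD17B1-KI and 1482, 2158 and 3403 in WT. The ranges overlapped, with WT 5 (2986) and WT 7 (3403) above every HSD17B1-KI mouse. The log2 fold change was -0.13 ± 0.19 (SE, limma adjusted p = 0.868), with a 95% interval from -0.54 to 0.28, or folds from 0.689 to 1.21. The 9 pericyte and smooth muscle markers summed to between 47817 and 89548 in HSD17B1-KI and between 55699 and 89404 in WT, with medians of 51587 and 68648. Of these 9 markers 8 had a log2 fold change below 0 (median -0.27), while 44.8% of all genes tested were above 0. At an unadjusted p under 0.05, 2 of the 9 were lower, where 4.64% of all genes were. The part of these markers in the Enpep values was not tested.

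**Figure D2:**
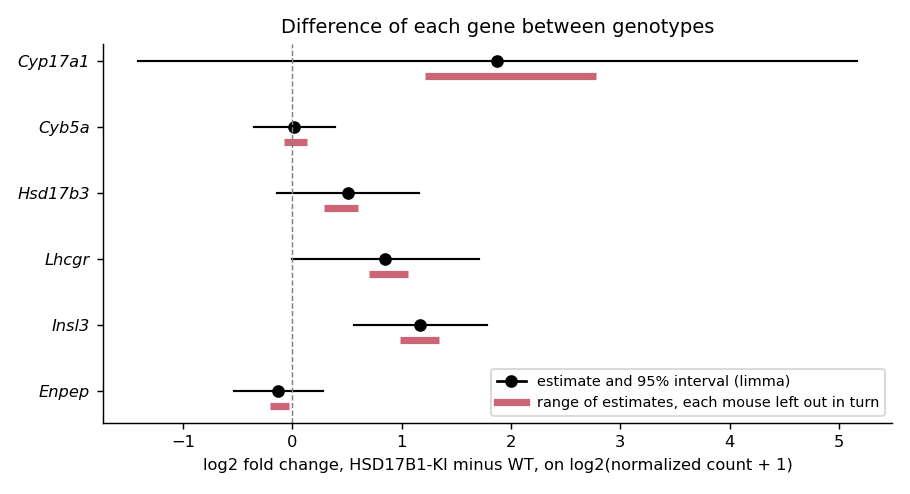
Log2 fold change of each gene (HSD17B1-KI minus WT, horizontal axis; 0 is no difference) with its 95% interval from limma in black, and below it in red the range of the estimate when each of the 15 mice was left out in turn. Only the interval of Insl3 (0.56 to 1.78) stays clear of 0, and that of Cyp17a1 (-1.41 to 5.16) is the widest.

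Counted together, 0 of the 6 genes were DE with limma-trend, where 0.214% of all genes tested were called, and 0 with edgeR (0.232%). Insl3 alone was called by DESeq2, where 2.30% of genes were. At an unadjusted p under 0.05 limma-trend called 1 of the 6 higher in HSD17B1-KI, Insl3, where 5.36% of all genes were, and none lower, where 4.64% were. The median log2 fold change of the 6 genes was 0.68 and 5 of 6 were above 0, while the median over all genes tested was -0.02 and 44.8% were above 0.

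The nearest annotated genes of Cyp17a1, Lhcgr and Hsd17b3 lay apart from them. They were the pseudogene Gm6967 at 1101 bases from Cyp17a1 (1.17 normalized counts on average), Gtf2a1l at 1329 bases from Lhcgr (52.0) and Slc35d2 at 7078 bases from Hsd17b3 (396), and none shared exon bases with its neighbour.

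Levels can be set beside each other only per length. Per kilobase of exon, the mean over the 15 mice was 6813 normalized counts for Cyp17a1, 4518 for Cyb5a, 2685 for Lhcgr, 452 for Enpep, 73.6 for Insl3 and 34.0 for Hsd17b3. The order of Cyp17a1 and Cyb5a was not fixed, with Cyp17a1 the higher in 7 of 15 mice (5 HSD17B1-KI and 2 WT). Cyb5a exceeded Lhcgr in 13 mice, Insl3 exceeded Hsd17b3 in 14, and Lhcgr exceeded Enpep and Enpep exceeded Insl3 in all 15. Dividing all Insl3 counts by the 219 bases that it does not share with Jak3 gives an upper limit of 209 per kilobase on average. At that limit Enpep exceeded Insl3 in 14 of 15 mice, the exception being HSD17B1-KI 1 (297 against 599). Among all genes tested, Cyp17a1, Cyb5a and Lhcgr exceeded 99.0%, 98.3% and 96.7% in level per kilobase, whereas Insl3 and Hsd17b3, which mark Leydig cells in the testis, exceeded 41.4% and 32.6%.

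The genes rose and fell together only in part. Of the 15 pairs of genes, 1 passed a permutation test of Pearson r on log2 values over the 15 mice after Benjamini-Hochberg adjustment over the pairs, that of Cyp17a1 and Cyb5a (adjusted p = 0.0133). Because Cyp17a1 fell into 2 separate ranges, no r over all mice is given for its pairs, and the relation was taken within the 11 mice of the upper range, a choice made after the values were seen. There, Cyp17a1 and Cyb5a had r = 0.0534 (permutation p = 0.876, adjusted p = 0.938) and a Spearman rho of 0.0636 (permutation p = 0.861), and r was 0.0115 without the 2 mice farthest from the median. The shared movement of this pair over all mice thus rested on the 4 ovaries low in both.

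**Figure D3:**
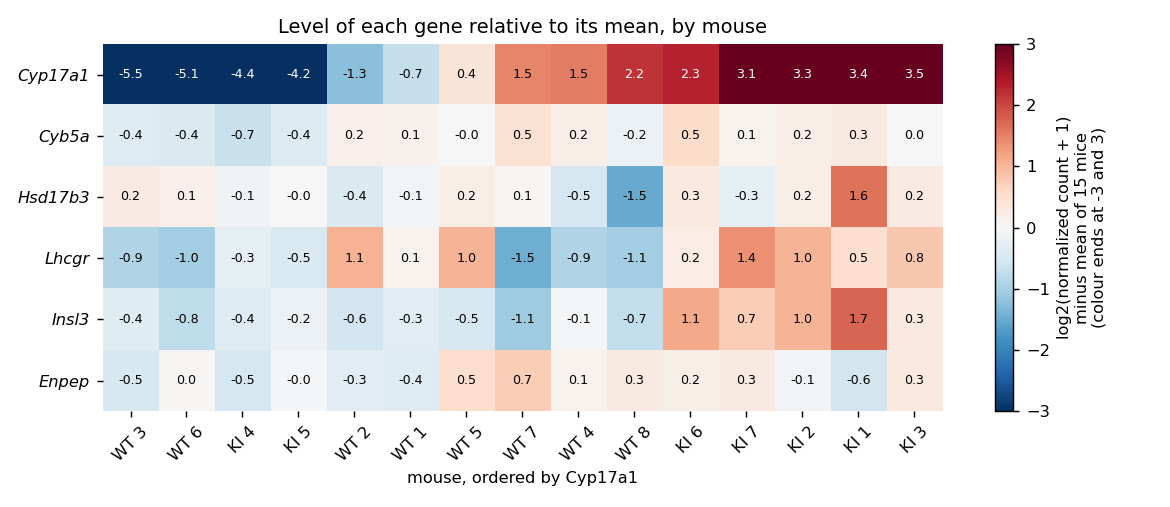
Log2 level of each gene minus its mean over the 15 mice (colour and printed value), with mice ordered from lowest to highest Cyp17a1. Cyb5a is below its mean in the 4 mice at the left, which had 107 to 254 normalized counts of Cyp17a1, whereas Hsd17b3 and Enpep show no common direction there.

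Within the upper range, Cyp17a1 and Insl3 had r = 0.658 (permutation p = 0.0289, adjusted p = 0.217) and a Spearman rho of 0.700 (permutation p = 0.0203, adjusted p = 0.305), and r was 0.703 without the 2 mice farthest from the median. With the genotype mean subtracted r was -0.170, and in the 6 WT mice of this range it was -0.231, so it was positive in neither. Over all 7 HSD17B1-KI mice, low ones included, Cyp17a1 and Insl3 had r = 0.800 (exact permutation p = 0.0304, adjusted p = 0.140). Cyp17a1 and Lhcgr had r = 0.0751 in the 11 mice (permutation p = 0.825, adjusted p = 0.938). With the genotype mean subtracted this was -0.683 (permutation p = 0.0211, adjusted p = 0.173), and in the 6 WT mice it was -0.819 (exact permutation p = 0.0653, adjusted p = 0.878). WT 4, 7 and 8, with 13298 to 21605 normalized counts of Cyp17a1, had 6203 to 9173 of Lhcgr, while WT 2, with 2033 of Cyp17a1, had 35356. For the 5 HSD17B1-KI mice of this range no r was computed, and HSD17B1-KI 6 was the lowest of them in both genes (24106 and 19821). Over all 7 HSD17B1-KI mice, which span the 2 ranges, r was positive at 0.861 (exact permutation p = 0.0123, adjusted p = 0.0923). Cyp17a1 gave r = 0.309 with Hsd17b3 and r = 0.145 with Enpep in the 11 mice (permutation p = 0.362 and 0.668, adjusted p = 0.543 and 0.835).

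Insl3 gave the largest coefficients among the pairs without Cyp17a1. Over the 15 mice, Insl3 and Hsd17b3 had r = 0.588 (permutation p = 0.0182, adjusted p = 0.108) and a Spearman rho of 0.439 (permutation p = 0.102, adjusted p = 0.304). Without HSD17B1-KI 1 and 6, the 2 mice farthest from the median of Insl3, r was 0.211. Without HSD17B1-KI 1 alone, the mouse highest in Hsd17b3, r was 0.303, and without HSD17B1-KI 6 alone it was 0.591, so the relation rested on HSD17B1-KI 1. It was 0.708 within HSD17B1-KI and 0.0231 within WT. Insl3 and Lhcgr had r = 0.565 (permutation p = 0.0288, adjusted p = 0.108) and a Spearman rho of 0.546 (permutation p = 0.0373, adjusted p = 0.186), with r = 0.661 without the same 2 mice. Within HSD17B1-KI it was 0.533 and within WT 0.309.

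Insl3 and Cyb5a had r = 0.427 over all mice (permutation p = 0.113, adjusted p = 0.253), a Spearman rho of 0.418 (permutation p = 0.122, adjusted p = 0.304) and r = 0.178 without HSD17B1-KI 1 and 6. Within the 7 HSD17B1-KI mice r was 0.885 (exact permutation p = 0.00754, adjusted p = 0.0923) and Spearman's rho was 0.964 (exact permutation p = 0.00278, adjusted p = 0.0417). Within the 8 WT mice r was -0.0798. Whether the coefficients differ between the genotypes was not tested. The 5 pairs with Enpep included none with an adjusted p under 0.05, and those of Enpep with Insl3, Lhcgr and Hsd17b3 were negative over all mice (r = -0.253, -0.0876 and -0.301). Without WT 7, the mouse lowest in Insl3 and Lhcgr and highest in Enpep, 4 of the 15 pairs passed the adjusted test in place of 1, and without HSD17B1-KI 4 none did.

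**Figure D4:**
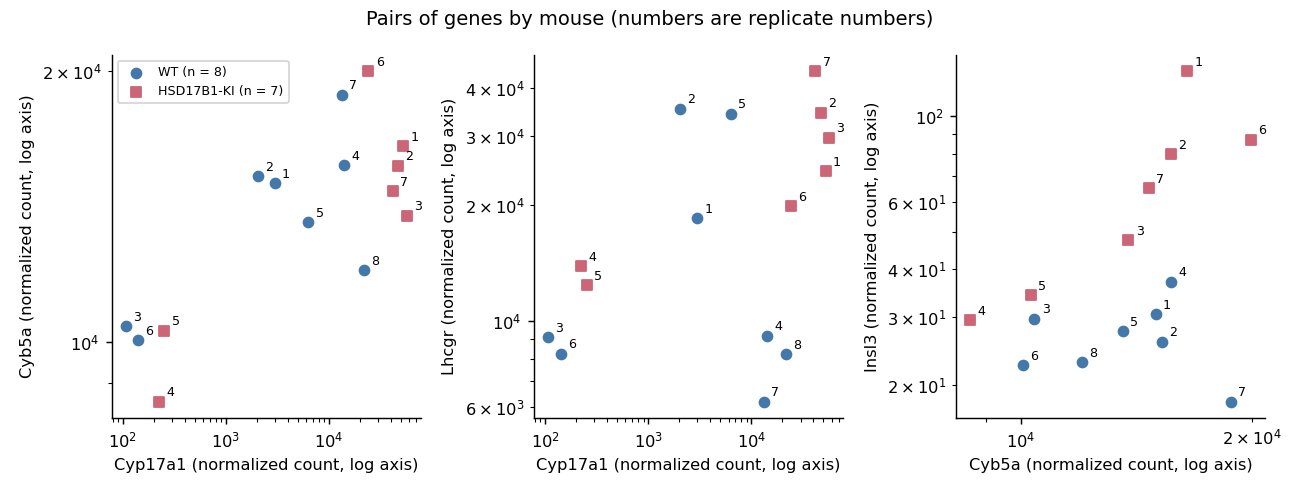
Normalized counts of 3 pairs of genes in each mouse (both axes logarithmic; circles are 8 WT, squares 7 HSD17B1-KI, numbers are replicates). In the left panel 4 mice low in both Cyp17a1 and Cyb5a stand apart, in the middle panel WT 4, 7 and 8 combine high Cyp17a1 with low Lhcgr, and in the right panel the 7 HSD17B1-KI mice line up (Spearman's rho 0.964) and the 8 WT mice do not.

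The genes most like each member across the 15 mice were found by Pearson r of log2 values after subtracting the genotype means, over the 18047 genes that averaged 10 or more normalized counts. For Cyp17a1 they were Pspc1 (r = 0.974), a paraspeckle protein, Plekhh1 (0.972) and Pcyt1b (0.971), an enzyme of phosphatidylcholine synthesis. For Lhcgr they were Hsd17b7 (0.922), an enzyme of cholesterol and estradiol synthesis, Pdlim4 (0.912) and Scarb1 (0.903), the receptor for high-density lipoprotein. For Insl3 they were Exosc2 (0.936), Fbl (0.934) and Lyar (0.922), genes of RNA processing and the nucleolus. The coefficients of Cyp17a1 run across its separate ranges, and none was computed within the 11 mice of the upper range.

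Cyb5a was most like Spin2c (0.962), Mettl21c (0.947) and Actr8 (0.936), Hsd17b3 most like Sugp1 (0.883), Chaf1b (0.859) and Nup85 (0.856), and Enpep most like Zfp37 (0.935), Ephb4 (0.921) and Tmem74 (0.907). No member was among the 3 genes most like another. These coefficients are the highest of many over the same 15 libraries and carry no test.

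The other genes of the same pathways were read from lists. Of 18 further genes of steroid synthesis tested, 1 was DE and higher in HSD17B1-KI, where 0.209% of all genes were. It was Hsd3b6, the 3β-hydroxysteroid dehydrogenase that mature Leydig cells use, with 206 ± 95.3 normalized counts in the HSD17B1-KI ovaries against 53.5 ± 26.1 in the WT ovaries (SD, n = 7 and 8), for a log2 fold change of 1.97 ± 0.31 (SE, limma adjusted p = 0.0239). The lowest HSD17B1-KI mouse (121) was above the highest WT mouse (101). Star, the cholesterol carrier of the mitochondrion, had a log2 fold change of 0.99 ± 0.57 (SE, limma adjusted p = 0.600), Cyp19a1, the aromatase, of 0.74 ± 0.65 (adjusted p = 0.749) and Hsd17b7 of -0.82 ± 0.63 (adjusted p = 0.717).

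In the pathway downstream of Lhcgr, 0 of 34 genes for G proteins, adenylyl cyclases, protein kinase A, phosphodiesterases and cyclic AMP response were DE with limma-trend (0.214% of all genes). At an unadjusted p under 0.05, 4 were higher and 1 was lower (5.36% and 4.64% of all genes), and DESeq2 called 1 higher (1.59% of all genes). That gene was Pde8b, a phosphodiesterase of steroid-making cells, with 1756 ± 408 normalized counts in the HSD17B1-KI ovaries against 1154 ± 249.6 in the WT ovaries (SD, n = 7 and 8), for a log2 fold change of 0.60 ± 0.16 (SE, limma adjusted p = 0.170, DESeq2 adjusted p = 0.0256). Prkar2b, a regulatory subunit of protein kinase A, had a log2 fold change of 0.58 ± 0.21 (SE, limma adjusted p = 0.339) and Pde4b of -0.46 ± 0.25 (adjusted p = 0.558).

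Among the partners of Insl3, 0 of 7 relaxin-family genes were DE by limma-trend or DESeq2 (0.214% and 2.30% of all genes). At an unadjusted limma p of 0.05, 0 passed (5.36% of all genes were higher and 4.64% lower). Rxfp1, the relaxin receptor, ran from 8.68 to 171 normalized counts in HSD17B1-KI and from 3.75 to 1462 in WT for a log2 fold change of -1.68 ± 1.05 (SE, limma adjusted p = 0.641). Among the partners of Enpep, 0 of 11 angiotensin genes were DE by limma-trend or DESeq2 (0.214% and 2.30% of all genes). At an unadjusted p under 0.05, 1 was lower (4.64% of all genes). This was Agtr1a, the type 1 receptor for the peptide that Enpep cleaves, with 178 ± 117 normalized counts in the HSD17B1-KI ovaries against 332 ± 196 in the WT ovaries (SD, n = 7 and 8), for a log2 fold change of -0.90 ± 0.37 (SE, limma adjusted p = 0.423). Ren1, the renin gene, had a log2 fold change of 0.58 ± 0.60 (SE, adjusted p = 0.801).

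Of 16 genes of Leydig cell maturation, 1 was DE and higher with limma-trend (0.209% of all genes), Hsd3b6 again. At an unadjusted p under 0.05, 7 were higher and 2 lower, where 5.36% and 4.64% of all genes were. DESeq2 called 4 of them higher (1.59% of all genes) and 1 lower (0.718%). Vcam1, an adhesion molecule, had 2963 ± 2078 normalized counts in the HSD17B1-KI ovaries against 953 ± 249.8 in the WT ovaries (SD, n = 7 and 8), for a log2 fold change of 1.41 ± 0.33 (SE, limma adjusted p = 0.0949, DESeq2 adjusted p = 0.000361). Ptgds, a prostaglandin D synthase, had a log2 fold change of 1.39 ± 0.60 (SE, limma adjusted p = 0.450). Log2 fold changes in this list ran from -0.52 to 2.24, with a median of 0.17. The gene at 2.24, not named here, exceeded Hsd3b6, Vcam1 and Ptgds but was not DE with limma-trend.

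Of 29 transcription factors of theca and Leydig cells, 0 were DE with limma-trend (0.214% of all genes). At an unadjusted p under 0.05, 6 were higher and 2 lower (5.36% and 4.64% of all genes), and DESeq2 called 4 higher (1.59% of all genes). Nr5a1, the steroidogenic factor that drives Cyp17a1, Insl3 and other genes of the pathway, had 25507 ± 7632 normalized counts in the HSD17B1-KI ovaries against 15822 ± 3546 in the WT ovaries (SD, n = 7 and 8), for a log2 fold change of 0.66 ± 0.19 (SE, limma adjusted p = 0.194, DESeq2 adjusted p = 0.0271). Nr0b2, a repressor of nuclear receptors, had a log2 fold change of 0.76 ± 0.17 (SE, limma adjusted p = 0.0915) and Cebpa of 0.75 ± 0.16 (SE, limma adjusted p = 0.0748). Of 10 markers of theca and interstitial cells, 1 was DE and higher (0.209% of all genes were), the retinaldehyde dehydrogenase Aldh1a1, whose log2 fold change was 1.02 ± 0.18 (SE, limma adjusted p = 0.0276). All 10 had a log2 fold change above 0, as 44.8% of all genes had, with a median of 0.24. Their summed level had a median of 976356 normalized counts in HSD17B1-KI (926116 to 1331301) and 796798 in WT (539523 to 1044875). Much of this sum came from Hsd3b1 and Cyp11a1, which are also luteal cell markers. The part of this sum in the values of the 6 genes was not tested.

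**Figure D5:**
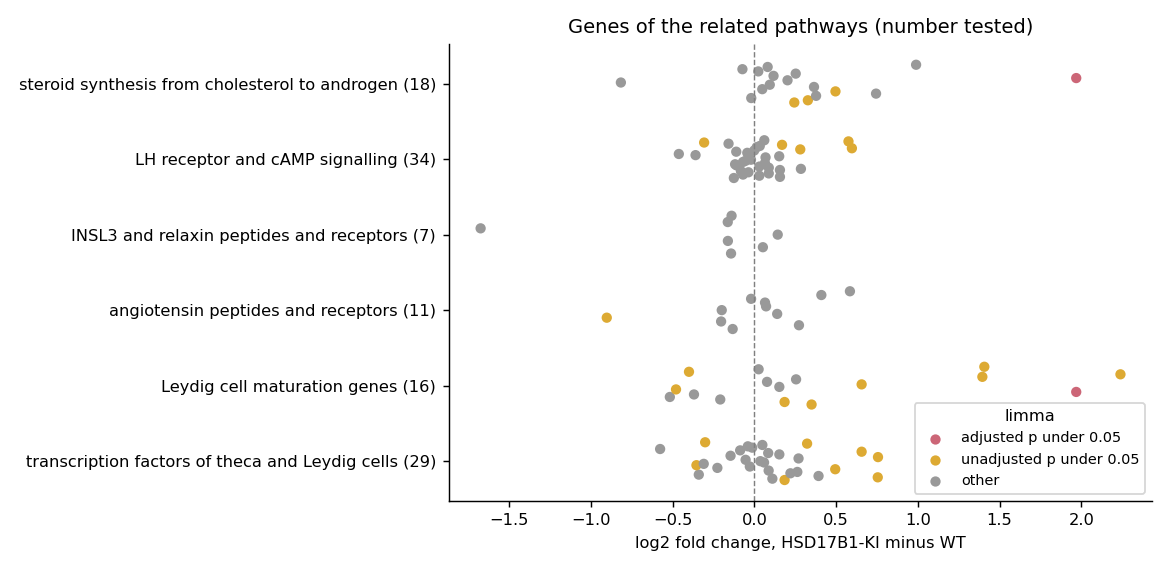
Log2 fold change (HSD17B1-KI minus WT, horizontal axis) of each gene of 6 related lists, one point per gene and the number tested in parentheses. Red points, the gene Hsd3b6 at 1.97 in the steroid synthesis and the Leydig maturation lists, passed an adjusted p of 0.05, and yellow points passed an unadjusted one only.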

How the data were processed

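Ovaries of 7 HSD17B1-KI and 8 WT mice were sequenced with stranded mRNA libraries. Reads were demultiplexed with bcl2fastq 2.20, trimmed with Skewer, aligned to mm10 with STAR 2.7.3 (versions per the submitters' processing notes) and counted per gene by a program not given in the sources used here. The authors deposited counts divided by DESeq2 size factors, a signal on a normalized scale. Dividing by the value of 1 read gave whole reads for 100% of values (tolerance 0.01).

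Log2(normalized count + 1) was compared between genotypes with limma-trend (limma 3.58.1, R 4.3.3) in genes with a mean of at least 2, with Benjamini-Hochberg adjustment over all genes tested. edgeR 4.0.16 and DESeq2 1.42.0 were run on the recovered reads. Single genes were tested by exact permutation over 6435 splits, and correlations with 100000 resamples (exact within a genotype). The scripts were tested on simulated data. The 6 genes, the lists and the tests were chosen with earlier results of these data known. From each list, DE genes and up to 3 others of largest log2 fold change with a mean of at least 10 were eligible to be named. Positions and exon lengths come from GENCODE M21 (27533 of 27907 identifiers matched) and promoters from RefSeq. Nothing states that mice were from separate litters. The p-values take the mice as independent of each other, which could not be checked.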

Additional observations from a re-analysis of the deposited data

Results flagged for a closer look

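In Hsd17b3, 1 mouse of each genotype stood far from the others of its group on the log2 scale. HSD17B1-KI 1 had 134 normalized counts, and its gap to the next mouse was 0.697 of the range of the 7 HSD17B1-KI mice, above the critical value of 0.568. WT 8 had 14.3 normalized counts, with a gap of 0.578 of the range of the 8 WT mice, above the critical value of 0.526. These were the 2 such mice among 12 groups of mice examined, and chance gives one in about 1 in 20 groups. WT 8 was also high in the summed oviduct epithelium markers (163823 normalized counts), which only WT 1 exceeded (240975). WT 1 had 40.7 normalized counts of Hsd17b3, and the part of the oviduct in these values was not tested.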

How the results depend on the processing

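The 6 genes kept their direction and their side of the adjusted threshold under most of 25 alternatives (edgeR, DESeq2, array weights, other pseudocounts and filters, scaling by upper quartiles or quantiles, the replicate block and leaving out each mouse). The exceptions were Insl3, called in DESeq2 (log2 fold change 1.33), which made 1 of the 6 genes DE there, and the direction of Cyb5a, whose log2 fold change near 0 was -0.0108 with quantile normalization, -0.00474 with array weights and between -0.0723 and 0.131 when each mouse was left out. Leaving out each mouse gave log2 fold changes of 1.22 to 2.78 for Cyp17a1, 0.98 to 1.34 for Insl3, 0.70 to 1.06 for Lhcgr, 0.29 to 0.60 for Hsd17b3 and -0.21 to -0.04 for Enpep. The adjusted p of Insl3 ran from 0.00234 to 0.471 over its alternatives. As a single gene, Cyp17a1 passed on normalized counts (difference 24190), and leaving out each mouse made 1 to 2 genes pass, since Lhcgr joined Insl3 without WT 2 or WT 5. The count on normalized counts was 2.

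The replicate numbers did not pair the mice, since same-numbered mice deviated together with r from -0.690 to 0.666 and 1 of 7 correlated best with its own number. With the replicate block, in which WT 8 has no partner and drops out, 0 genes were DE and Cyb5a had a log2 fold change of -0.00775.

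The count of 46 DE genes was 28 without the filter, 28 with quantile normalization, 125 with array weights, 456 with DESeq2 and 6 to 139 when each mouse was left out. Of the 15 pairs, 0 passed with Spearman's rho over all mice, and by Pearson r 0 passed within HSD17B1-KI (where Insl3 and Cyb5a passed by Spearman's rho), within WT, without the 2 farthest mice and in the 11 mice with or without subtraction of the genotype mean, and 0 to 4 passed when each mouse was left out. Reversals among the pairs were Insl3 and Cyb5a within WT (-0.0798) and, of the values in the 11 mice, those of Cyp17a1 with Insl3 (-0.231 in the 6 WT mice, -0.170 with the genotype mean subtracted), Lhcgr (-0.819 and -0.683), Cyb5a (-0.119 and -0.253) and Hsd17b3 (-0.466 and -0.247), and with Enpep without the 2 farthest mice (-0.631). The causes were not tested. Between 15 and 115 reads per library limit the precision of Insl3 and Hsd17b3.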
